A study of Mus musculus with 24 samples.

Results

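The comparison described here asked whether the change in gene expression from LSK cells to committed progenitors differed between 2 inbred mouse strains. It was the difference between D2 progenitors and D2 LSK cells minus the difference between B6 progenitors and B6 LSK cells, called the interaction below, and it drew on 12 of the 24 arrays of the series. Groups of 3 arrays entered it, 4 in all: LSK cells of B6 mice, LSK cells of D2 mice, committed progenitors of B6 mice and committed progenitors of D2 mice. B6 is the strain labelled C57Bl/6 and D2 the strain labelled DBA2. All cells came from primary bone marrow, no treatment is named, and the age and sex of the mice are not given in the labels. LSK cells lack lineage markers and carry Sca-1 and Kit, and the progenitors lack lineage markers and Sca-1 and carry Kit. Total RNA from each sorted population was labelled with biotin and hybridised to a single-colour Illumina mouse bead array, 1 sample to an array. The labels number the arrays of a group 1 to 3 but do not say whether they came from separate animals, so the p-values below measure the spread between these arrays, which may be technical.

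LSK cells hold the haematopoietic stem cells and the multipotent progenitors of the bone marrow. On commitment they lose Sca-1 and the regulators of self-renewal, such as Meis1, and switch on the programmes of granulocytes, monocytes, red cells and megakaryocytes. B6 and D2 mice are known to differ in the number and cycling of their stem cells, which is why the pair is much used in the genetics of haematopoiesis. An interaction of 0 means that a gene changed by the same amount on the log2 scale in both strains, a positive one that progenitors stood higher relative to LSK cells in D2 than in B6, and a negative one the reverse. It says nothing by itself about the level of the gene in either strain.

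Of the markers chosen for LSK cells 7 were measured, and 2 of them were detected throughout. Kit was detected on all 12 arrays at levels from 8.66 to 10.21 (normalised log2 intensity). Meis1 fell from 10.75 ± 0.33 to 8.44 ± 0.80 in B6 and from 10.97 ± 0.45 to 9.04 ± 0.16 in D2 (SD, n = 3), while Mpo, the myeloperoxidase of primary granules, rose from 12.60 to 14.81 and from 12.71 to 14.52. The other 5 LSK markers were detected on part of the arrays or none. Flt3 was detected on none of the 12 arrays, Procr on 1, and Slamf1, Hlf and Mecom on some arrays of both cell types, with Mecom at 4.88 and 4.89 in B6 LSK cells and progenitors. Of the other cell types that the sort should remove, the 1 B cell and 2 T cell markers measured were detected on none of the 12 arrays, and of 4 macrophage markers C1qb was detected on 1 array. The 4 neutrophil markers measured (S100a8, S100a9, Camp and Ngp) were detected on all 12. Their summed intensity ranged from 5700 to 7780 in B6 LSK cells, from 2280 to 3210 in B6 progenitors, from 6510 to 20500 in D2 LSK cells and from 4940 to 17500 in D2 progenitors. The high values belonged to D2 LSK replicate 2 and D2 progenitor replicate 3. The erythroid markers Hba-a1 and Slc4a1 were also detected on all 12, with a summed intensity from 1220 to 2920 in B6 LSK cells, 1050 to 1260 in B6 progenitors, 824 to 2280 in D2 LSK cells and 712 to 2190 in D2 progenitors, where replicate 1 held the 2190 and the other arrays 712 and 740. Their part in the results was not tested. The share of probes detected was also uneven, at 12.6% on D2 LSK replicate 2 and 17.5% on D2 progenitor replicate 1 against 19.9% to 26.8% on the other 10 arrays. Pairs of arrays within a group correlated across genes at r from 0.983 to 0.989 in both B6 groups, from 0.960 to 0.986 in D2 progenitors and from 0.924 to 0.986 in D2 LSK cells. The part of these 3 D2 arrays in the results was not tested beyond the fits without them that are given below.

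**Figure D1:**
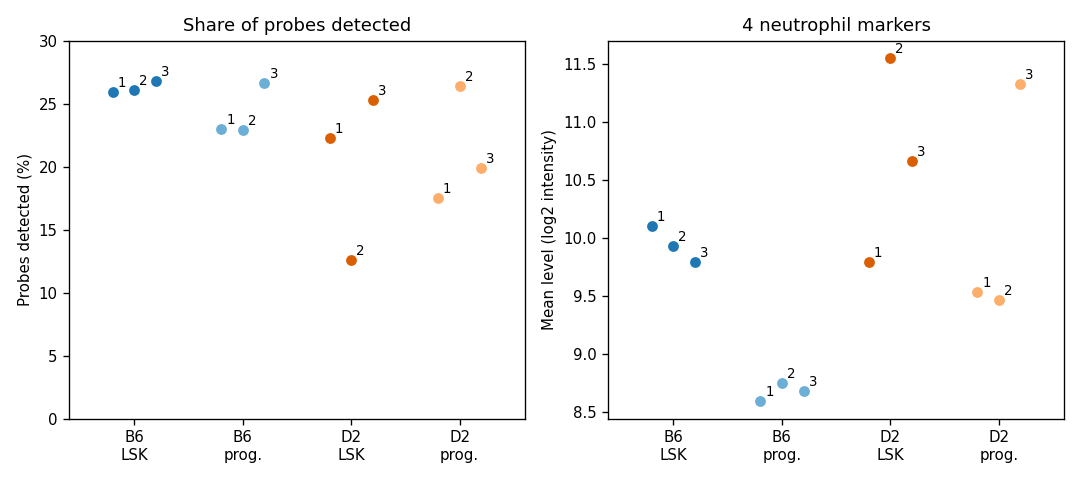
Share of the 45281 probes detected (left, percent, detection p under 0.01) and mean level of the 4 neutrophil markers (right, log2 intensity, axis not from 0) on each of the 12 arrays, with replicate numbers beside the points. D2 LSK replicate 2 has the lowest share, 12.6%, and with D2 progenitor replicate 3 the highest marker levels.

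Most of the change from LSK cells to progenitors was common to the strains. Among 7925 genes tested, 2219 changed in B6 (28%) and 2151 changed in D2 (27.1%) at an adjusted p under 0.05. In B6 996 rose (12.6%) and 1223 fell (15.4%), and in D2 1145 rose (14.4%) and 1006 fell (12.7%). Scaling the arrays by their median left 70 calls in D2, 54 up and 16 down, and scaling by the 75th percentile left 213, 149 up and 64 down. The 2 changes share no array, and across the 7925 genes, which are not independent replicates, they had a Pearson correlation of 0.84 and a Spearman correlation of 0.793. A total of 1448 genes changed in the same direction in both, which is 65.3% of the B6 calls and 67.3% of the D2 calls, and 4 changed in opposite directions.

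The interaction passed the test for 77 genes (0.972% of those tested), 40 of them higher (0.505%) and 37 lower (0.467%), and 558 genes had an unadjusted p under 0.05. With median scaling 4 genes passed, all higher, and with 75th percentile scaling 11 passed, 6 higher and 5 lower. The split became 29 and 47 when D2 LSK replicate 2 and D2 progenitor replicate 3 were left out, with 76 passing. With only the 12 arrays in the fit 46 passed, 40 of them among the 77. Of the 35 called genes named by rule below, 3 kept the call with median scaling (Mst1r, Wfdc2 and Rab6b) and 6 with 75th percentile scaling. The loss is not repeated for every gene. The absolute interaction of the 77 ran from 0.86 to 3.68 with a median of 1.44, against a median interaction of 0.06 and a median standard error of 0.32 over all genes. For 52 of the 77 the larger change was in B6 and for 25 it was in D2. By the tests within each strain, 23 fell in B6 with no call in D2, 14 rose in B6 with no call in D2, 10 fell in D2 with no call in B6, 5 rose in D2 with no call in B6, 21 changed in the same direction in both by unequal amounts, and 4 changed in opposite directions. The highest mean level lay in B6 LSK cells for 33 genes, in D2 LSK cells for 19, in B6 progenitors for 19 and in D2 progenitors for 6. Of all 7925 genes, 767 were called in B6 alone and 699 in D2 alone. The other splits were not counted over all genes. Both arrays of lowest detection were D2 arrays, and their part in these splits was not tested.

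Signal near the detection limit bears on many of these genes. The probes of 21 of the 77 were detected on all 12 arrays (12 higher, 9 lower) and 56 were not. Of all 7925 genes, 3678 were detected on all 12. For 17 genes neither D2 group was detected on any array, and for 7 genes neither B6 group was. In such a gene the change in that strain is not measured, and the interaction rests on the other strain. How many of all genes lacked detection in both groups of a strain was not counted. Of the 77, 19 were detected on 2 of the 3 D2 LSK arrays, and in all 19 the missing array was D2 LSK replicate 2. That array detected 12.6% of all probes, against 22.3% and 25.3% on the other D2 LSK arrays. How many of all genes had this pattern was not counted, so it is not shown to be particular to the called genes. Probe sequences were not used here, so variants between the strains under a probe were not checked.

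**Figure D2:**
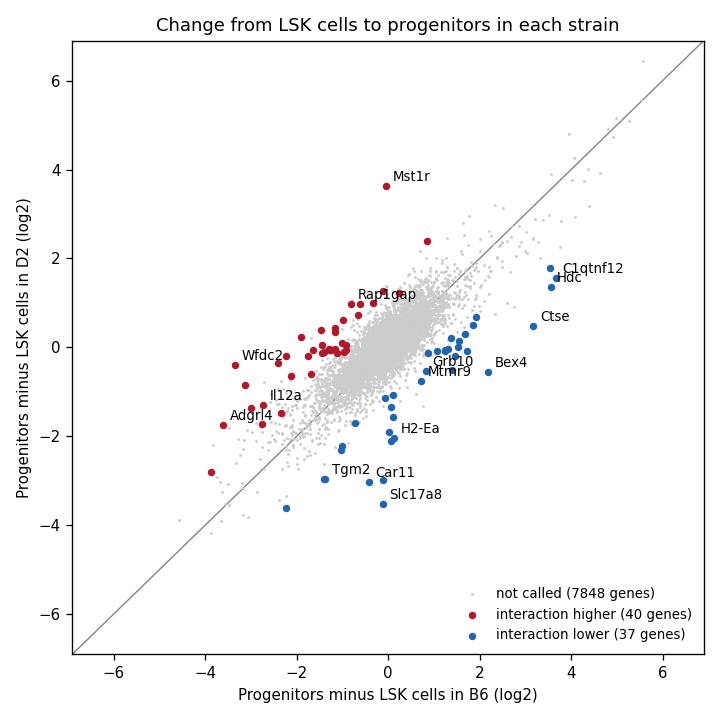
Change from LSK cells to progenitors in B6 (x axis) and in D2 (y axis), log2, 1 point for each of 7925 genes, with the line of equal change. The 40 genes with a higher interaction lie above the line, the 37 with a lower interaction lie below it, and Mst1r stands alone at a change of 3.64 in D2 and -0.04 in B6.

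In 4 genes the strains changed in opposite directions, and these were detected on all 12 arrays. Rap1gap encodes an activator of GTP hydrolysis by the small GTPase Rap1. In B6 its levels were 6.31, 6.15 and 5.71 in LSK cells and 5.14, 5.47 and 5.18 in progenitors, and in D2 they were 7.24, 7.73 and 7.57 in LSK cells and 8.47, 8.48 and 8.48 in progenitors. Progenitors lay below LSK cells in B6 and above them in D2 without overlap, with changes of -0.80 ± 0.18 and 0.97 ± 0.18 and an interaction of 1.76 ± 0.25 (SE, adjusted p = 0.000352). Arl11, an ARF-like small GTPase, followed the same course from the opposite ranking of the strains. Its levels were 8.91, 8.73 and 8.93 in B6 LSK cells, 8.17, 8.25 and 8.21 in B6 progenitors, 6.83, 6.82 and 6.95 in D2 LSK cells, and 7.27, 7.67 and 7.85 in D2 progenitors. The strains therefore lay closer together in progenitors than in LSK cells, and the interaction was 1.38 ± 0.28 (adjusted p = 0.00987).

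Mtmr9 and Grb10 took the other course, up in B6 and down in D2. Mtmr9 is a member of the myotubularin family that lacks phosphatase activity and binds active members. It was at 5.02, 4.75 and 4.81 in B6 LSK cells, 5.30, 5.71 and 5.74 in B6 progenitors, 6.94, 7.03 and 6.73 in D2 LSK cells, and 6.32, 6.09 and 6.02 in D2 progenitors. The changes were 0.73 ± 0.17 and -0.76 ± 0.17, with D2 the higher strain throughout and the gap smaller in progenitors. Grb10, an imprinted adaptor that dampens signalling from the insulin and IGF receptors, was at 6.63, 6.23 and 6.40, then 7.35, 6.89 and 7.52 in B6, and at 7.61, 7.63 and 7.71, then 6.91, 7.31 and 7.14 in D2. Neither pair of groups overlapped. The interactions were -1.48 ± 0.25 for Mtmr9 (adjusted p = 0.00156) and -1.36 ± 0.24 for Grb10 (adjusted p = 0.00299), and the calls of these 4 genes held when any 1 of the 12 arrays was left out. With median or 75th percentile scaling the calls of all 4 were lost. That of Grb10 was also lost with the 12 arrays normalised and fitted alone (adjusted p = 0.0523). That of Arl11 was also lost without D2 LSK replicate 2 and D2 progenitor replicate 3 together (adjusted p = 0.0507).

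Genes that rose in B6 and did not pass the test in D2 included the 2 lowest interactions among genes detected on all 12 arrays. Ctse encodes cathepsin E, an aspartic protease of the endosomal system. It stood at 7.65, 6.85 and 7.31 in B6 LSK cells and rose to 10.32, 10.37 and 10.63 in B6 progenitors, whereas in D2 it was already at 10.91, 10.97 and 10.87 in LSK cells and at 11.28, 11.47 and 11.45 in progenitors. The changes were 3.17 ± 0.24 and 0.48 ± 0.24 (adjusted p = 0.154 in D2), and the interaction was -2.69 ± 0.35 (adjusted p = 9.02e-05). Its 3 probes disagreed: a further probe gave an interaction of -1.77 ± 0.57 and another gave 0.52 ± 0.41, with changes of 0.28 in B6 and 0.80 in D2, and the mean of the probes gave -1.31 (adjusted p = 0.12). Bex4, of the brain-expressed X-linked family, was at 7.39, 6.62 and 7.14 in B6 LSK cells, 9.80, 8.88 and 9.02 in B6 progenitors, 8.45, 8.26 and 8.43 in D2 LSK cells, and 8.22, 7.73 and 7.54 in D2 progenitors. It rose by 2.19 ± 0.30 in B6 and differed by -0.55 ± 0.30 in D2 (adjusted p = 0.186), so the strains changed rank between the cell types, and its second probe gave an interaction of -1.95 ± 0.41 beside -2.74 ± 0.42. The calls of Ctse and Bex4 were lost with median or 75th percentile scaling. Arhgef25, an exchange factor for small GTPases, had changes of 1.31 ± 0.23 and -0.03 ± 0.23 and an interaction of -1.34 ± 0.32 (adjusted p = 0.0423). Its call was lost, at adjusted p up to 0.165, when any array other than B6 LSK replicate 3, D2 LSK replicate 2 and B6 progenitor replicate 2 was left out.

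More genes fell in B6 with no call in D2. Tespa1, an adaptor of antigen receptor signalling in thymocytes, was at 8.49, 8.46 and 8.03 in B6 LSK cells and 6.36, 6.94 and 6.44 in B6 progenitors, against 7.23, 7.33 and 6.98 and then 7.16, 7.07 and 6.70 in D2. It fell by 1.75 in B6, its D2 groups overlapped, and the interaction was 1.54 ± 0.29 (adjusted p = 0.00491). Dpp4, the surface peptidase CD26, which cleaves chemokines such as CXCL12, was at 8.08, 7.40 and 7.68 in B6 LSK cells and 6.40, 6.50 and 6.74 in B6 progenitors, with 7.92, 7.16 and 7.78 and then 7.66, 8.20 and 8.30 in D2. LSK cells of both strains lay in the same range and the strains parted in progenitors, with an interaction of 1.61 ± 0.35 (adjusted p = 0.0227). That call was lost, at adjusted p up to 0.0898, without B6 LSK replicate 1 or 3, B6 progenitor replicate 1 or 2, or D2 progenitor replicate 2 or 3.

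The remaining genes of this kind that were detected on all 12 arrays were Ugt1a10, Lat2 and Rhobtb3. Ugt1a10, a UDP-glucuronosyltransferase whose family shares its last exons, so that the probe may read several members, had changes of -1.39 ± 0.17 and -0.10 ± 0.17. Its interaction was 1.29 ± 0.24 (adjusted p = 0.00418), beside 1.14 and 0.71 from 2 further probes, and the mean of the probes gave 1.05 (adjusted p = 0.0533). Lat2 is an adaptor of Fc receptor signalling in mast cells and of the B cell receptor. It stood at 10.77, 10.48 and 10.66 in B6 LSK cells, above all 9 other arrays, which ran from 9.02 to 9.74, and its interaction was 1.26 ± 0.29 (adjusted p = 0.0307). A second Lat2 probe gave 0.77 ± 0.30, and the mean of the probes gave 1.01 (adjusted p = 0.0961). Rhobtb3, an atypical small GTPase of the Golgi, had changes of -1.24 ± 0.19 and -0.05 ± 0.19 and an interaction of 1.20 ± 0.27 (adjusted p = 0.0283). Its second probe, detected on 3 of the 12 arrays, gave 0.49 ± 0.19. The call of Lat2 was lost (adjusted p up to 0.133) without B6 LSK replicate 1 or 3, D2 LSK replicate 2, B6 progenitor replicate 1 or 3, or D2 progenitor replicate 2 or 3. That of Rhobtb3 was lost (up to 0.114) without B6 LSK replicate 1 or 2, D2 LSK replicate 2, B6 progenitor replicate 1 or 2, or D2 progenitor replicate 3.

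In a set of genes the signal was strong in B6 LSK cells and near or below the detection limit elsewhere. Wfdc2 encodes a secreted protein of the whey acidic protein family. It was at 7.77, 7.15 and 7.79 in B6 LSK cells and not detected in B6 progenitors, a fall of at least 7.05-fold, while it was detected on 1 of 3 D2 LSK arrays and on no D2 progenitor array. H2-Ob, the beta chain of the class II accessory molecule H2-O, was at 7.26, 6.91 and 6.65 in B6 LSK cells and 5.21, 4.85 and 5.08 in B6 progenitors and was not detected on any D2 array of either type. Its fall of 1.90 ± 0.25 in B6 is measured and its D2 change is not. Rab6b, a Golgi-associated small GTPase, was at 6.97, 6.91 and 6.65 in B6 LSK cells, was detected on 1 B6 progenitor array and 2 D2 LSK arrays at 4.94 or less, and was not detected in D2 progenitors. Stxbp4, a syntaxin-binding protein, was at 7.0, 7.29 and 7.19 in B6 LSK cells and at 5.10, 4.90 and 4.82 in B6 progenitors, and at 5.0 to 5.62 on the 6 D2 arrays, 5 of which detected it. Its 2 further probes gave interactions of 2.44 and 1.42, beside 2.03 ± 0.27. Cox6a2, a muscle-type subunit of cytochrome c oxidase, had an interaction of 1.86 ± 0.42 (adjusted p = 0.0265), and its call was lost (up to 0.105) without B6 LSK replicate 3, D2 LSK replicate 2, B6 progenitor replicate 1 or 3, or D2 progenitor replicate 2. The interactions of the first 3 were 2.94 ± 0.25, 2.14 ± 0.35 and 2.05 ± 0.27, each with an adjusted p of 0.00156 or less.

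D2 progenitors held the highest interaction of the comparison. Mst1r encodes the receptor tyrosine kinase Ron, whose ligand is macrophage-stimulating protein. In the mouse it is the gene at Fv2, a locus of susceptibility to Friend virus erythroleukaemia, at which B6 carries the resistant allele and D2 the susceptible one, and the difference lies in the expression of a short form of the receptor. Its levels were 8.00, 7.97 and 7.96 in D2 progenitors, and it was not detected on any array of the other 3 groups, which ran from 4.20 to 4.50. D2 progenitors were at least 6.59-fold above D2 LSK cells and at least 9.35-fold above B6 progenitors, and the interaction was 3.68 ± 0.20 (adjusted p = 3.76e-11). Mst1r passed the detection filter only through D2 progenitors, the group where it is high. The SE draws in part on groups without signal, so the size of this p-value is not a measure of support. A second probe gave 1.30 ± 0.20 and was likewise detected on 3 of the 12 arrays. Outside these cells Mst1r was detected on 2 of 3 Ter119+ arrays of D2 mice (mean level 4.83) and on no Ter119+ array of B6 mice or Gr1+ array of either strain. Which form of the transcript the probes read was not examined.

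Pawr, a pro-apoptotic inhibitor of atypical protein kinase C, was the other gene detected in D2 progenitors and in none of the other 3 groups, at 5.72, 5.28 and 5.79, and it was chosen after its values were seen. Its interaction was 1.37 ± 0.23 (adjusted p = 0.00177) and its level at least 1.27-fold above D2 LSK cells. The bound is small because the signal lay close to the limit. Pawr could pass the detection filter through D2 progenitors, and its SE too draws in part on groups without signal.

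Several genes were high in D2 LSK cells and fell in D2 with no call in B6. Slc17a8 encodes the vesicular glutamate transporter VGLUT3. It was at 7.64, 8.57 and 7.41 in D2 LSK cells and not detected in D2 progenitors, a fall of at least 7.11-fold, and it was detected on 1 of the 6 B6 arrays. Its interaction of -3.41 ± 0.28 was the lowest of the 77 (adjusted p = 6.04e-08). Car11, a carbonic anhydrase-related protein without catalytic activity, was at 7.48, 6.87 and 7.76 in D2 LSK cells, at 4.68, 4.77 and 4.89 in B6 LSK cells, and not detected in progenitors of either strain, so that it fell by at least 5.02-fold in D2 and had an interaction of -2.60 ± 0.25. Grb7, an adaptor of receptor tyrosine kinases related to Grb10, was detected on 2 D2 LSK arrays at levels of 6.77 and 6.40, was at 6.15 without a detection call on D2 LSK replicate 2, and was not detected on any other array of the 4 groups. Its interaction was -2.18 ± 0.42 (adjusted p = 0.00669). None of these 3 calls was lost on leaving out any 1 array, but all 3 were lost with median scaling. Those of Car11 and Grb7 were also lost with 75th percentile scaling. Grb7 was detected throughout none of the 4 groups, so it passed the detection filter only through Gr1+ or Ter119+ arrays, which the comparison does not use.

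Of this kind, 2 genes were detected on all 12 arrays. Phlda2, an imprinted gene that restrains growth of the placenta, was at 7.20, 7.80 and 7.12 in D2 LSK cells and 6.60, 5.72 and 5.12 in D2 progenitors, while both B6 groups lay between 6.05 and 6.64. Mlycd, the malonyl-CoA decarboxylase of fatty acid oxidation, was at 7.87, 8.12 and 8.49 and then 6.64, 7.06 and 6.79 in D2, and between 5.29 and 5.72 on all 6 B6 arrays. In both genes D2 LSK cells stood above every other array and the B6 groups overlapped. The interactions were -1.67 ± 0.38 for Phlda2 (adjusted p = 0.0307) and -1.39 ± 0.28 for Mlycd (adjusted p = 0.00858). The call of Phlda2 was lost (up to 0.128) without B6 LSK replicate 2 or 3, D2 LSK replicate 2, B6 progenitor replicate 1 or 3, or D2 progenitor replicate 2 or 3, and that of Mlycd was not lost without any 1 array but was with only the 12 arrays fitted (0.0507). Both calls were lost with median or 75th percentile scaling.

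**Figure D3:**
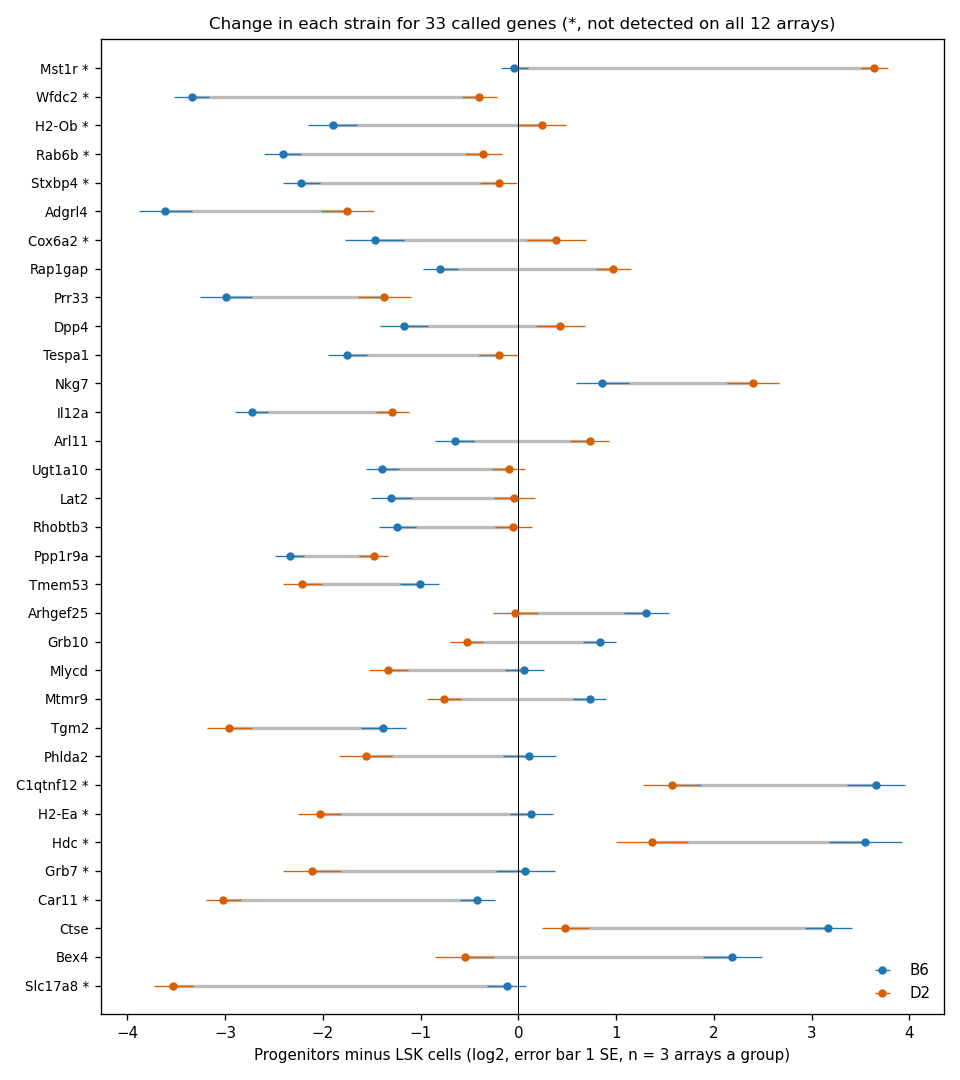
Change from LSK cells to progenitors (log2, bars 1 SE, n = 3 arrays a group) in B6 and in D2 for 33 called genes, ordered by interaction, with an asterisk where the probe was not detected on all 12 arrays. In 4 genes, Rap1gap, Arl11, Mtmr9 and Grb10, the points lie on opposite sides of 0 and both changes passed the test.

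In another set both strains moved the same way by unequal amounts. Adgrl4, an adhesion G protein-coupled receptor of endothelium, was at 10.60, 10.82 and 10.70 in B6 LSK cells and 6.51, 7.38 and 7.41 in B6 progenitors, against 7.85, 8.83 and 7.93 and then 6.77, 6.44 and 6.16 in D2. It fell by 3.61 in B6 and by 1.75 in D2, and progenitors of the strains lay closer together than LSK cells did (interaction 1.86 ± 0.38, adjusted p = 0.00969). Il12a, the p35 subunit of interleukin-12 and interleukin-35, fell from 9.24, 9.26 and 9.41 to 6.24, 6.9 and 6.58 in B6 and from 8.65, 8.39 and 8.49 to 7.23, 7.30 and 7.14 in D2. The strains changed rank, with B6 higher in LSK cells and D2 higher in progenitors (interaction 1.44 ± 0.24, adjusted p = 0.00177). Tgm2, tissue transglutaminase, fell from 8.00, 8.16 and 7.96 to 6.68, 6.51 and 6.78 in B6 and from 9.39, 9.28 and 9.31 to 6.28, 6.35 and 6.45 in D2, again with a change of rank (interaction -1.58 ± 0.33, adjusted p = 0.0121). The calls of these 3 genes held without any 1 array, but all 3 were lost with median or 75th percentile scaling. That of Adgrl4 was also lost with only the 12 arrays fitted (adjusted p = 0.097).

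The other genes that fell in both strains and were detected on all 12 arrays were Prr33, Ppp1r9a and Tmem53. Prr33 fell by 2.99 in B6 and by 1.37 in D2 (interaction 1.62 ± 0.38, adjusted p = 0.0378). Ppp1r9a, neurabin, an actin-binding partner of protein phosphatase 1, fell by 2.34 and by 1.48 (0.86 ± 0.21, adjusted p = 0.0492). Tmem53, a membrane protein, fell by 1.01 and by 2.21 (-1.20 ± 0.28, adjusted p = 0.0328). All 3 calls were lost on leaving out single arrays. For Prr33 this was any array except D2 LSK replicate 2, B6 progenitor replicate 2 and D2 progenitor replicate 1 (adjusted p up to 0.152), and for Ppp1r9a any except D2 LSK replicate 2 and D2 progenitor replicate 3 (up to 0.179). For Tmem53 it was B6 LSK replicate 2 or 3, D2 LSK replicate 3, B6 progenitor replicate 1 or 2, or D2 progenitor replicate 1 or 3 (up to 0.118).

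A further 3 named genes rose in both strains. Hdc, the histidine decarboxylase that makes histamine, was at 7.76, 6.97 and 7.57 in B6 LSK cells and 10.78, 11.10 and 11.05 in B6 progenitors, against 5.10, 4.21 and 6.04 and then 5.73, 6.63 and 7.11 in D2. B6 progenitors stood above every other array, and the D2 groups overlapped. The rises were 3.55 ± 0.37 and 1.37 ± 0.37 and the interaction was -2.18 ± 0.53 (adjusted p = 0.0423), with -1.81 ± 0.25 from a second probe, and the call was lost (up to 0.156) when any array except D2 LSK replicate 2 and D2 progenitor replicate 3 was left out. C1qtnf12, a secreted C1q and TNF-related protein, rose from 6.17, 6.29 and 6.34 to 9.86, 9.76 and 10.16 in B6 and from 5.82, 4.67 and 5.61 to 7.12, 6.78 and 6.93 in D2 (interaction -2.09 ± 0.42, adjusted p = 0.00931). Nkg7, a membrane protein of cytotoxic granules, went the other way, rising by 0.86 ± 0.27 in B6 and by 2.40 ± 0.27 in D2. Its levels were 9.32, 9.22 and 9.60 in B6 LSK cells but 5.85, 6.93 and 5.68 in D2 LSK cells, so the larger rise in D2 still left D2 progenitors, at 8.28, 8.71 and 8.66, below B6 LSK cells. Its interaction was 1.54 ± 0.38 (adjusted p = 0.0492) and the call was lost (up to 0.179) when any array except D2 LSK replicate 2, B6 progenitor replicate 2 and D2 progenitor replicate 1 was left out.

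Histocompatibility genes fell from LSK cells to progenitors in both strains. Of 18 class I and class II genes tested 12 fell in B6 (15.4% of all genes did) and 10 in D2 (12.7%), 7 of them in both, and none rose. H2-Ea encodes the alpha chain of the class II molecule I-E, which mice of the H2b haplotype, such as B6, are known not to express because of a deletion in the gene. It was not detected on any B6 array of the 4 groups, and in D2 it fell from 8.34, 8.89 and 8.50 in LSK cells to 6.12, 6.68 and 6.85 in progenitors. Its interaction of -2.15 ± 0.32 (adjusted p = 0.000381) is therefore the D2 change, -2.03 ± 0.22, set against a gene without signal. H2-Ea was the 1 member with a called interaction (5.56%, against 0.972% of all genes), and the median interaction of the 18 was 0.06, equal to that of all genes (0.14 against -0.01 without D2 LSK replicate 2). H2-Ob, described above, and H2-DMb2, which was chosen after its values were seen, lie outside that list. H2-DMb2, a beta chain of the peptide-loading molecule H2-DM, was at 7.25, 7.36 and 7.29 in B6 LSK cells, 6.17, 6.40 and 6.36 in B6 progenitors, 5.06, 4.37 and 5.32 in D2 LSK cells and 5.29, 5.41 and 5.87 in D2 progenitors. Its interaction was 1.60 ± 0.38 (adjusted p = 0.0378), a second probe that was detected on none of the 12 arrays gave -0.08 ± 0.34, and the call was lost (up to 0.139) on leaving out any array except D2 LSK replicate 1, D2 LSK replicate 3 and D2 progenitor replicate 1.

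Genes of the interferon response fell in both strains in 11 of 34 cases. Of the 34, 17 fell in B6, against 15.4% of all genes, and 12 in D2, against 12.7%, and the mean level of the list was 7.35 ± 0.03 in B6 LSK cells, 6.67 ± 0.06 in B6 progenitors, 6.70 ± 0.13 in D2 LSK cells and 6.24 ± 0.09 in D2 progenitors. One member had a called interaction (2.94%, against 0.972% of all genes), and the median interaction was 0.23. That member was Oas2, an oligoadenylate synthetase that senses double-stranded RNA. It was at 6.06, 7.15 and 7.12 in B6 LSK cells and was detected on 1 B6 progenitor array, 2 D2 LSK arrays and no D2 progenitor array, with an interaction of 1.47 ± 0.33 (adjusted p = 0.0238). The call was lost (up to 0.102) without B6 LSK replicate 2 or 3, D2 LSK replicate 2, B6 progenitor replicate 1 or 3, or D2 progenitor replicate 1 or 2.

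Ifi213 and Mndal, of the interferon-inducible Ifi200 family of DNA-binding proteins on mouse chromosome 1, were also called, though they were in no list and were chosen after their values were seen. Mndal was at 6.53, 6.27 and 6.49 in B6 LSK cells and 4.72, 5.32 and 4.92 in B6 progenitors, and it was not detected on any D2 array of the 4 groups (interaction 1.5 ± 0.24, adjusted p = 0.000928). Ifi213 was at 5.87, 6.43 and 6.55 in B6 LSK cells and 5.28, 4.91 and 5.20 in B6 progenitors, and the 6 D2 arrays lay between 4.27 and 5.19 (1.51 ± 0.34, adjusted p = 0.0269). The call of Ifi213 was lost (up to 0.102) without B6 LSK replicate 2 or 3, D2 LSK replicate 2, B6 progenitor replicate 2 or 3, or D2 progenitor replicate 1 or 2, and that of Mndal was not. Both calls were lost with median or 75th percentile scaling. Of the 4 other members tested, Aim2, detected on 7 of the 12 arrays, had an interaction of -0.22 ± 0.28 (adjusted p = 0.991), and Ifi207, Ifi202b and Ifi214 were detected on none.

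The promoters of these 2 genes are shown because both carry the core of the interferon-stimulated response element, here GAAA followed by any 2 bases and a further GAAA, searched on both strands and set in capitals. The windows run from 250 bases before to 50 bases after a RefSeq transcript start (assembly GRCm38.p6, the B6 reference; all on the minus strand). The match begins 73 bases before the start in Ifi213, and 54 and 36 bases before it in the 2 windows of Mndal.
Ifi213, chr1:173599223-173599522: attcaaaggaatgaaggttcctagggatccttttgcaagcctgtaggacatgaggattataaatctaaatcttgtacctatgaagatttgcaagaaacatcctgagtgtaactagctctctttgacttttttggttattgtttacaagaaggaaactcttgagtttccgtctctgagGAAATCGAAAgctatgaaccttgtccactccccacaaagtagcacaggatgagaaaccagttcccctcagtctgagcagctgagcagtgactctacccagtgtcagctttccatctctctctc
Mndal, chr1:173879909-173880208: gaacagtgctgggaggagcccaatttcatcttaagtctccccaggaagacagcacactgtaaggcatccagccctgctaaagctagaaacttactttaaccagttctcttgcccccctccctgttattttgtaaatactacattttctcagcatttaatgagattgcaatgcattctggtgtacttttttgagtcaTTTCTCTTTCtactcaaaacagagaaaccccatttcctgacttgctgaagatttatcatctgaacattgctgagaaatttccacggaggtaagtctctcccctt
Mndal, chr1:173880138-173880437: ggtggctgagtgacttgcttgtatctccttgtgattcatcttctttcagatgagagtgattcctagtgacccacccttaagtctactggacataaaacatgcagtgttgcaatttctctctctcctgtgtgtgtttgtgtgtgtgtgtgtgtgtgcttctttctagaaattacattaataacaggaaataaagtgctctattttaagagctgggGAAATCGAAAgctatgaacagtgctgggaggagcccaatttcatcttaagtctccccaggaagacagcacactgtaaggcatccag
The element was found in 3.44% of 32851 promoter windows. By gene, it was in 6 of the 61 called genes with a window (9.84%: Dpp4, Ifi213, Mmrn1, Mndal, Rpe and Vldlr) and in 3.99% of 27025 genes. The 27025 are all genes with a window, not only the 7925 tested here, and a gene may have several windows. The shares are therefore not set against a like background. The GATA motif AGATAA was in 3 of the 61 (4.92%, against 12.7% of genes and 11.2% of windows) and the E-box CAGCTG in 17 (27.9%, against 18.3% and 16.3%). Both strands were searched, and matches of different motifs may overlap. The 3 motifs were chosen with the called genes known, and the matches describe the B6 sequence and were not tested.

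Some lists of lineage genes had 1 or 2 members with a called interaction, against 0.972% of all genes, and others had none. Mmrn1, the platelet factor V-binding protein multimerin 1, was not detected on any B6 array, was at 6.71, 7.47 and 6.57 in D2 LSK cells and was detected on 2 of 3 D2 progenitor arrays at 5.55 and below. Its interaction of -1.92 ± 0.29 (adjusted p = 0.000604) was the 1 call among 14 megakaryocyte genes (7.14%), whose median interaction was 0.10 and changed sign, to -0.15, without D2 progenitor replicate 1. Among 16 mast cell and basophil genes Hdc was lower and Lat2 higher (12.5%), and the list's median of 0.59 was the furthest from the median of all genes, 0.06. It fell to 0.30 without D2 LSK replicate 2 (all genes -0.01). Nkg7 was the 1 call among 19 early myeloid genes (5.26%, median 0.12) and also among 10 T and NK cell genes (10%, median 0.11), and Mst1r the 1 call among 23 cytokine receptors and their inhibitors (4.35%, median 0.21). The early myeloid median changed sign without D2 LSK replicate 2 (-0.06) or D2 progenitor replicate 3 (-0.08), the cytokine receptor median was 0.05 without D2 LSK replicate 2, and the T and NK median rose to 0.27 without D2 LSK replicate 3.

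The other 13 lists had no called member by limma in the main fit, and 0 to 5 members each with an unadjusted p under 0.05. In other fits some of them gained calls, up to 4 in the immediate early list with array weights. Of 19 stem cell genes 14 fell in B6 and 13 in D2, 12 of them in both, against 15.4% and 12.7% of all genes, and 5 had an unadjusted interaction p under 0.05. The 2 with the largest interaction were Angpt1, at 1.13 ± 0.45 (adjusted p = 0.5), and Cd34, at 1.12 ± 0.39 (adjusted p = 0.326). Cd34 passed when the authors' deposited log2 values were fitted (adjusted p = 0.0397). Of 26 erythroid genes 18 rose in B6 and 17 in D2, 17 of them in both, against 12.6% and 14.4% of all genes. Their median interaction was -0.21 (-0.35 without B6 progenitor replicate 2), and Add2, a membrane skeleton protein, had the largest at -1.04 ± 0.36 (adjusted p = 0.326). Erythroid genes had 3 members with an unadjusted p under 0.05.

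Cell cycle genes rose in more members in D2 than in B6, a difference of counts that was not itself tested. Over all genes too more rose in D2 (14.4%) than in B6 (12.6%). Of 28 DNA replication genes 12 rose in B6 and 20 in D2, with a median interaction of 0.26, 3 unadjusted p-values under 0.05 and no call. Of 18 mitosis genes 4 rose in B6 and 11 in D2, with a median interaction of 0.27, 1 unadjusted p-value under 0.05 and no call. Mcm3, a subunit of the replicative helicase, had the largest replication interaction at 0.90 ± 0.38 (adjusted p = 0.558), and Kif11, a spindle motor, the largest of the mitosis list at 1.03 ± 0.36 (adjusted p = 0.326). The mean level of the replication genes was 7.84 ± 0.05 in B6 LSK cells, 8.45 ± 0.09 in B6 progenitors, 7.35 ± 0.24 in D2 LSK cells and 8.19 ± 0.04 in D2 progenitors, the D2 LSK arrays running from 7.09 to 7.57. Without D2 LSK replicate 2 the medians were 0.13 for replication and 0.11 for mitosis, beside -0.01 for all genes, and without D2 LSK replicate 1 that of mitosis was 0.42.

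Late neutrophil genes varied with single D2 arrays. The median interaction of 24 genes was 0.45, no member was called and none had an unadjusted p under 0.05. The mean level of the list was 6.57 to 6.81 in B6 LSK cells, 6.14 to 6.28 in B6 progenitors, 6.47 to 7.64 in D2 LSK cells and 6.54 to 7.82 in D2 progenitors. The median was 0.02 without D2 progenitor replicate 3 and 0.62 without D2 LSK replicate 2, the arrays with the highest neutrophil marker levels, and 0.83 without D2 progenitor replicate 1. In bulk RNA, fewer cells of a type and less RNA per cell cannot be told apart.

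Among the rest, the largest interactions in B lymphoid genes were those of Dntt, terminal transferase, at 1.58 ± 0.42 (adjusted p = 0.0862), and of Satb1, a chromatin organiser, at 1.46 ± 0.44 (adjusted p = 0.187), with a list median of 0.25 (0.16 without D2 LSK replicate 2). In immediate early genes they were Cd69, an activation antigen, at 1.86 ± 0.56 (adjusted p = 0.179), and Ier3, at 1.26 ± 0.37 (adjusted p = 0.144), with a median of 0.19. That median was -0.09 without D2 progenitor replicate 3, 0.49 without D2 LSK replicate 2 and 0.50 without D2 progenitor replicate 1. Of 19 immediate early genes 9 fell in B6 and 11 in D2, 8 of them in both, against 15.4% and 12.7% of all genes. Dntt passed with the authors' deposited log2 values (adjusted p = 0.0397), array weights (0.0261) or D2 LSK replicate 1 left out (0.00612). Cd69 passed with array weights (0.00762) or D2 progenitor replicate 1 left out (0.0369). Satb1 and Ier3 passed with array weights (0.0303 and 0.00176). The medians of the remaining lists were 0.31 for eosinophil, 0.18 for monocyte, 0.21 for cell cycle inhibitor, -0.06 for respiratory chain, -0.08 for ribosome biogenesis and -0.11 for heat shock genes. On leaving out 1 array they ran from 0.02 (D2 LSK replicate 1) to 0.55 (D2 progenitor replicate 1) for eosinophil, from 0.09 (D2 progenitor replicate 3) to 0.21 (B6 progenitor replicate 1) for monocyte and from 0.05 (D2 LSK replicate 2) to 0.38 (D2 progenitor replicate 1) for cell cycle inhibitor genes. They ran from -0.17 (D2 progenitor replicate 1) to 0.11 (D2 progenitor replicate 3) for respiratory chain, from -0.15 (D2 LSK replicate 3) to 0.03 (B6 LSK replicate 1) for ribosome biogenesis and from -0.18 (B6 LSK replicate 2) to -0.03 (D2 progenitor replicate 3) for heat shock genes.

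**Figure D4:**
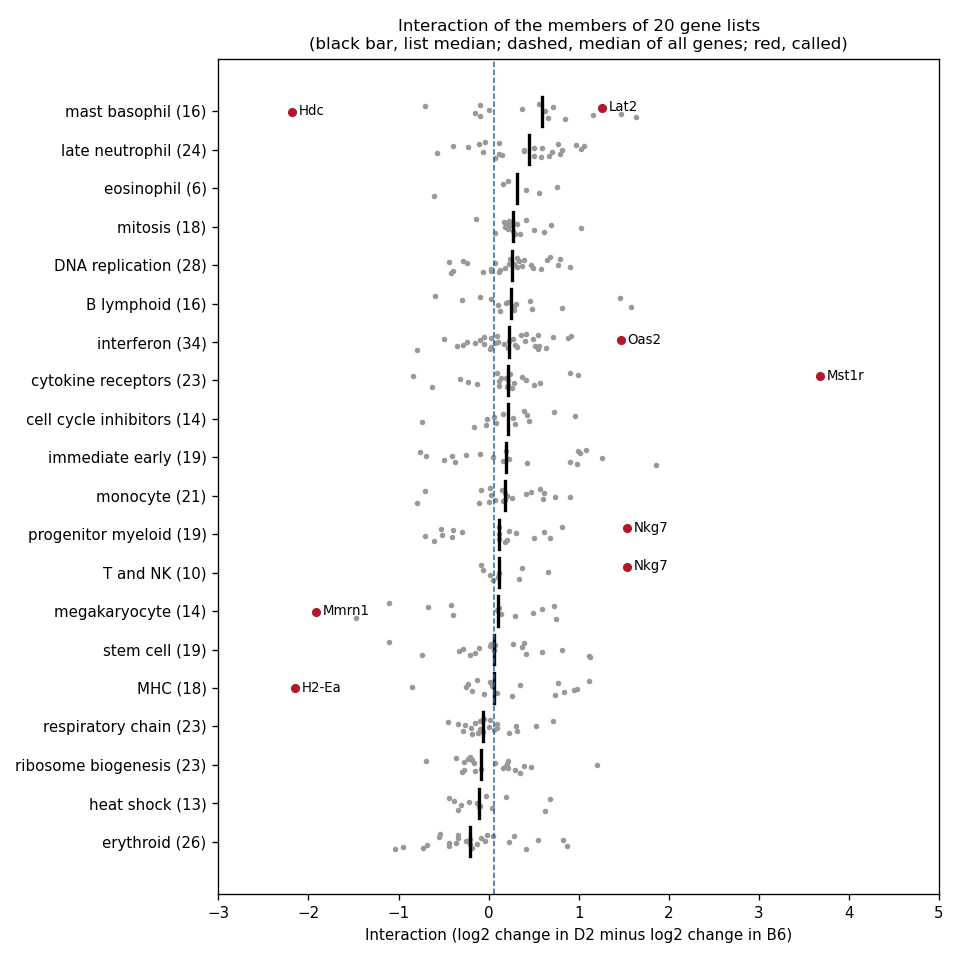
Interaction (log2) of each tested member of 20 gene lists, with the number tested in brackets, the list median as a black bar, the median of all genes (0.06) as a dashed line and called members in red and named. In 7 lists a member was called, 2 members in the mast cell and basophil list, and the medians run from -0.21 for erythroid to 0.59 for mast cell and basophil genes.

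Of the 77 genes, 14 were detected on all 3 arrays of 1 group and on no array of the other 3. Of these, 2 were the genes of D2 progenitors given above, 5 were detected in B6 progenitors (Papss2, Zbtb46, Hpn, Tspan8 and Fgd6) and 7 in B6 LSK cells (Traf1, Tlr7, Tmem121, Parp3, Lcn12, Sla2 and Wfdc18), chosen by this pattern after their values were seen. Papss2, an enzyme that makes the sulphate donor of sulphation, was at 5.74, 6.34 and 6.12 in B6 progenitors, at least 2.70-fold above B6 LSK cells (interaction -1.79 ± 0.24, adjusted p = 9.02e-05). Zbtb46, a transcription factor of classical dendritic cells, was at 5.52, 5.33 and 5.58 (-1.31 ± 0.20, adjusted p = 0.000551). Traf1, an adaptor of TNF receptors, was at 5.86, 5.74 and 5.83 in B6 LSK cells (1.32 ± 0.24, adjusted p = 0.00427), and Tlr7, an endosomal sensor of single-stranded RNA, at 5.48, 5.61 and 5.70 (1.21 ± 0.23, adjusted p = 0.00669). A gene of this pattern can pass the detection filter through its 1 group, and its SE draws in part on groups without signal. The share of all 7925 genes with the pattern was not counted. By this rule no called gene was detected in D2 LSK cells alone. Grb7 was detected on 2 D2 LSK arrays and on no other array of the 4 groups. It missed the rule on D2 LSK replicate 2, which detected 12.6% of probes, the lowest share.

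Some of the called genes also differed between the strains in mature cells, on arrays that the interaction did not use. A strain difference was called in Gr1+ granulocytes for 15 of the 77 (19.5%, against 5.67% of all genes) and in Ter119+ erythroid cells for 36 (46.8%, against 17.1%), with 11 in both. All 24 arrays share the normalisation and the estimate of spread. Necap2, an endocytic adaptor chosen here after its values were seen, was at 9.03, 8.80 and 8.94 in B6 LSK cells and 10.86, 10.17 and 10.79 in B6 progenitors and was detected on 1 of the 6 D2 arrays, and D2 lay lower by 5.20 in granulocytes, where 1 of 3 D2 arrays detected it, and by 5.47 in erythroid cells. Its second probe rose by 1.82 in B6 and by 1.60 in D2, with an interaction of -0.22 ± 0.32 where the first gave -1.38 ± 0.27. Ctse was higher in D2 granulocytes by 3.49 and differed by -0.61 in erythroid cells (adjusted p = 0.0898), and H2-Ea, not detected on any B6 array of either type, was at least 9.76-fold higher in D2 granulocytes and at least 173-fold higher in D2 erythroid cells. Mst1r, not detected in B6 erythroid cells, was at least 1.15-fold higher in those of D2 (adjusted p = 0.0221), and granulocytes of neither strain detected it. For 19 of the 77 genes at least 1 further probe was measured. In 17 of them every further probe had the sign of the first, the exceptions being Ctse and H2-DMb2. The sizes could differ. A further probe gave 0.05 ± 0.22 for Tm6sf1 (first probe 1.33) and -0.2 ± 0.4 for Cldn10 (-1.14). For Adgrg3 it gave 2.02 ± 0.54 (first probe 1.59) and for Hpn -1.49 ± 0.18 (-1.16). When probes were averaged within genes, 69 of the 77 calls were kept. Those of Tm6sf1, Cldn10 and Necap2 were among the lost. The share of matching signs over all genes was not counted.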

How the data were processed

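The deposited raw columns hold probe intensity as the authors exported it, not normalised between arrays. GenomeStudio is named, with no version, in the submitters' processing notes. The deposited fraction beside each intensity was read as 1 minus the detection p, from its values and per the file headers. The authors' deposited series matrix holds log2 intensities, within 0.00113 of quantile-normalised log2 raw values, and served as an alternative. Intensities were background-corrected, quantile-normalised over 24 arrays and put on the log2 scale (neqc, offset 16) in limma 3.58.1 (R 4.3.3). Probes with a detection p below 0.01 throughout at least 1 group of 3 arrays were retained: 12668 of 45281, 11034 with 1 gene symbol from the array annotation supplied, giving 7925 genes, each by its probe of highest mean.

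Group means were fitted in limma to all 24 arrays (16 residual degrees of freedom), with two-sided tests and Benjamini-Hochberg adjustment over the 7925 genes. Errors are SEs for differences and SDs for levels. "At least" folds set the bright group against, on each array, the higher of the lowest well detected signal and the dim probe's own. The 3 arrays a group limit the precision.

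Genes were named by a rule: up to 12 a direction by interaction among called genes detected on all 12 arrays, up to 6 a direction among the others, called members of 20 gene lists (otherwise the 1 or 2 with the largest interaction), genes called in opposite directions, and cell type markers. The comparison, the lists and the rule were chosen with earlier results of these data known. Some markers are not reported here. Promoter sequences are RefSeq's, and 61 of the 77 called genes had one. Figures were drawn with matplotlib 3.10.9. Alternatives covered background correction, scaling, filters, probes, arrays fitted, weights and left-out arrays.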

Additional observations from a re-analysis of the deposited data

Results flagged for a closer look

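The interaction test found that the change from LSK cells to progenitors differed between the strains for 77 genes, and each value here is a log2 difference (D2 change minus B6 change) flagged by that test. Among genes detected on all 12 arrays the change was higher in D2 for Adgrl4 (1.86), Rap1gap (1.76), Prr33 (1.62), Dpp4 (1.61), Tespa1 (1.54), Nkg7 (1.54), Il12a (1.44), Arl11 (1.38), Ugt1a10 (1.29), Lat2 (1.26), Rhobtb3 (1.20) and Ppp1r9a (0.86). It was lower in D2 for Bex4 (-2.74), Ctse (-2.69), Phlda2 (-1.67), Tgm2 (-1.58), Mtmr9 (-1.48), Mlycd (-1.39), Grb10 (-1.36), Arhgef25 (-1.34) and Tmem53 (-1.20).

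Among genes not detected on all 12 arrays it was higher for Mst1r (3.68), Wfdc2 (2.94), H2-Ob (2.14), Rab6b (2.05), Stxbp4 (2.03), Cox6a2 (1.86) and Oas2 (1.47), and lower for Slc17a8 (-3.41), Car11 (-2.60), Grb7 (-2.18), Hdc (-2.18), H2-Ea (-2.15), C1qtnf12 (-2.09) and Mmrn1 (-1.92). Of those named after their values were seen, H2-DMb2 (1.60), Ifi213 (1.51), Mndal (1.5), Pawr (1.37), Traf1 (1.32) and Tlr7 (1.21) were higher and Papss2 (-1.79), Necap2 (-1.38) and Zbtb46 (-1.31) lower. These values include changes from or to signal below detection, which are not fold changes of the transcript.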

How the results depend on the processing

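All 77 called genes, where tested, kept the sign of their interaction under all 29 alternatives. The alternatives reuse the arrays on which the 77 were picked for a large interaction, so a kept sign is no independent support. Median and 75th percentile scaling shifted the median interaction of all genes to 0.45 and 0.29. After that shift was removed all 77 kept their sign at a median size of 1.49 (1.44 as reported), with a median standard error of 0.74 and 0.58 in place of 0.32. The number of calls for the interaction became 4 with median scaling, 11 with 75th percentile scaling, 41 with the 12 arrays normalised and fitted alone, 46 with only the 12 arrays fitted, 16 of 3705 genes detected on all 12 arrays and 195 with array weights, which gave D2 LSK replicate 2 a weight of 0.10 and D2 progenitor replicate 1 one of 0.26 and kept 76 of the 77. With weights, immediate early and mast cell and basophil genes had 4 calls each. The other settings gave 70 to 95. Leaving out 1 array gave 52 to 91, and 48 of the 77 were called without any 1 array. Chosen after seeing the data, leaving out both arrays of high neutrophil markers (D2 LSK replicate 2, D2 progenitor replicate 3) gave 76 calls, 59 shared, 29 higher and 47 lower. Leaving out both arrays of lowest detection (D2 LSK replicate 2, D2 progenitor replicate 1) gave 82, 58 shared. Calls for the B6 change became 356, 709, 1350, 3482 and 929 with median scaling, 75th percentile scaling, detection on all 12 arrays, array weights and a 2-fold minimum, and for the D2 change 70, 213, 1189 and 889 with the same settings other than weights. Leaving out 1 array gave 1643 to 2723 and 1761 to 2147. The cause was not tested.

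Replicate numbers were not taken to pair the arrays, since the deviations of same-numbered arrays correlated at over 0.1 in 11 of 18 pairs and not in all (r from -0.389 to 0.339). All 6 pairs of number 3 did (0.216 to 0.339), and in 1 of 6 pairs of groups all 3 numbers did. Only 4 of 12 arrays correlated best with their own number. With a replicate block 81 genes were called, 74 of them shared, and the calls of Nkg7 and Ppp1r9a were lost. Genes near the detection limit could not be measured in both strains, and the low detection on D2 LSK replicate 2 limits D2 LSK cells.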
